A study of Mus musculus with 9 samples.

Results

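The aryl hydrocarbon receptor (AHR) pathway was followed through 7 genes in RAW 264.7 cells, a mouse macrophage line. The genes are the receptor Ahr, its partner Arnt, its repressor Ahrr and 4 genes known as its transcriptional targets, Tiparp, Cyp1a1, Cyp1b1 and Ugt1a6a. They were taken by symbol from the 51826 genes in the count table, and all 7 were present there. Of the 7, the 4 genes Arnt, Ahrr, Tiparp and Ugt1a6a had enough counts to be tested, among 14458 genes tested in all, while Ahr, Cyp1a1 and Cyp1b1 did not.

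The cells were compared in 3 groups of 3 libraries, which the labels call biological replicates. One group was given calycosin, a plant isoflavone, at 100 µg/mL for 24 h and then lipopolysaccharide (LPS), a bacterial cell wall component, at 300 ng/mL for 6 h. A second group was given the same LPS exposure without calycosin, and the third was given vehicle. No group was given calycosin alone, so every calycosin value here belongs to LPS-exposed cells. All libraries come from a single cell line, and p-values measure the spread between these libraries.

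AHR is a ligand-activated transcription factor of the bHLH-PAS family. It waits in the cytosol in a complex with the chaperone HSP90, the co-chaperone p23 and the kinase SRC, and it moves to the nucleus when it binds a planar aromatic ligand such as a dioxin, a tryptophan derivative or certain plant flavonoids. There it pairs with ARNT and binds the xenobiotic response element, whose core is GCGTG, at genes such as Cyp1a1. Some of the products feed back: AHRR competes for ARNT, and TIPARP, a mono-ADP-ribosyltransferase, modifies AHR. In mouse macrophages AHR is known for limiting the cytokine output that follows LPS.

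Promoters in RefSeq (GRCm38.p6) were available for 6 of the 7 genes. The 250 bases before the RefSeq start site are shown for the repressor and for 3 targets. They hold the core through which AHR and ARNT are known to act, as does the Arnt window, which is not shown. RefSeq starts can differ from the gene spans given below. The Cyp1a1 window lies inside its gene span, and the Tiparp window ends inside its gene span. Capitals mark GCGTG or, where the core lies on the other strand, CACGC.

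Ahrr, chr13:74292332-74292581, minus strand: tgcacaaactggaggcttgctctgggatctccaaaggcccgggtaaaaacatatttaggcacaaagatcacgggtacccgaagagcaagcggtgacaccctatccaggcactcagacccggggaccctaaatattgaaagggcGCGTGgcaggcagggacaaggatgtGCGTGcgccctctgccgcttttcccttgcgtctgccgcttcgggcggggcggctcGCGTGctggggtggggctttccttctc
Tiparp, chr3:65528197-65528446, plus strand: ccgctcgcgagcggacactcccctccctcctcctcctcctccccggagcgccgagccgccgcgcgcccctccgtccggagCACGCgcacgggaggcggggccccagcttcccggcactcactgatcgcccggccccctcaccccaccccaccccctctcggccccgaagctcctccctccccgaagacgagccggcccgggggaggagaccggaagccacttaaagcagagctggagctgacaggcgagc
Cyp1a1, chr9:57697363-57697612, plus strand: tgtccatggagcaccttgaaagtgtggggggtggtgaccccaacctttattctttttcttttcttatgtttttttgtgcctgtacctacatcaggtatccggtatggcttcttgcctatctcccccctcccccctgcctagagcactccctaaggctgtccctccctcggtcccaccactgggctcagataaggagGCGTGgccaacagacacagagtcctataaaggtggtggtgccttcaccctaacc
Cyp1b1, chr17:79715062-79715311, minus strand: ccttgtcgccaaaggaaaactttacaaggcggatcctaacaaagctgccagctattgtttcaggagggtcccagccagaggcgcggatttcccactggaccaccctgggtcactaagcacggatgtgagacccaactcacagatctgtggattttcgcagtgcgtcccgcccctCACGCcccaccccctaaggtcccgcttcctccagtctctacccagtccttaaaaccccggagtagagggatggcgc

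The Ahrr window held 3 cores, which begin 107, 82 and 27 bases before the start. Tiparp held 1 at 170 bases, Cyp1a1 1 at 54 bases and Cyp1b1 1 at 76 bases. Arnt held 1 at 29 bases, and the Ugt1a6a window held none. On either strand, the core occurred in 28.2% of the 32851 promoter windows of this length, and 3 or more cores occurred in 2.77% of them, so a single core is common and is only a description of the letters. These letters can be read beside the values below, where the 4 genes shown range from no counts in any library to over 100 CPM, the scaled count defined below.

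Libraries held 27784737 to 38524105 counts in all, with the LPS group lowest. Levels are given in CPM, counts divided by a library's effective size, which is its total times a composition factor (TMM). The factor was 0.942, 1.11 and 0.896 in calycosin plus LPS replicates 1, 2 and 3. It was 0.791, 0.786 and 0.813 in LPS replicates and 1.42, 1.42 and 1.05 in vehicle replicates. A given count therefore stood for more CPM in an LPS library than in a vehicle library. The limit that a count of 0 allows, 3 counts, stood for 0.0602 to 0.137 CPM depending on the library. Libraries within a group were not alike: mitochondrial genes took 17.2%, 7.45% and 19.4% of counts in calycosin plus LPS replicates 1, 2 and 3, 13.0% to 14.7% in LPS replicates, and 3.79%, 3.68% and 21.9% in vehicle replicates 1, 2 and 3. Calycosin plus LPS replicate 2 and vehicle replicate 3 thus stood apart from their groups. Values without them are given for some, not all, of the results that they change. Counts of genes called in the lists of related genes also changed without both, and not all of these are given. Macrophage markers all had counts in every library (6 of 6), with a summed level of 3169 to 3784 CPM in calycosin plus LPS cells, 4406 to 4621 CPM in LPS cells and 4449 to 4850 CPM in vehicle cells. The sums hide opposite changes: with LPS 2 of the 6 were higher and 2 lower than with vehicle, beside 27.3% and 28.9% of all genes tested. Markers of other cell types summed to 0.751 to 1.22 CPM in calycosin plus LPS cells, 4.49 to 7.05 CPM in LPS cells and 0.575 to 0.790 CPM in vehicle cells, and Epcam, Krt18 and Ncr1 were at 0 in all libraries. Most of the LPS sum came from the endothelial cadherin Cdh5. That gene was 13.7-fold higher with LPS than with vehicle (edgeR quasi-likelihood test, adjusted p = 5.44e-05). It was 7.08-fold lower in calycosin plus LPS cells than in LPS cells (adjusted p = 0.00108). Whether it bears on the other results was not tested.

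**Figure D1:**
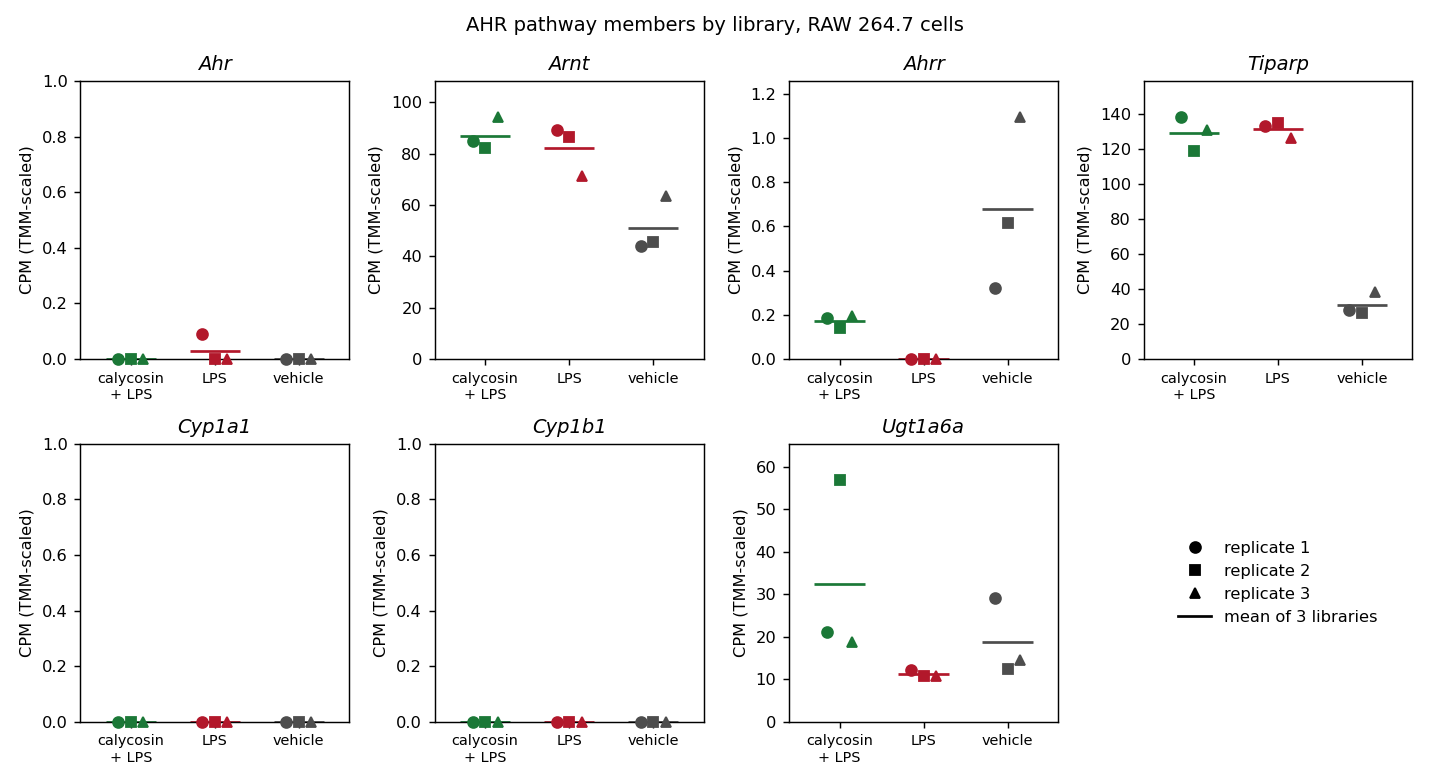
Levels of the 7 genes in each library, in CPM after TMM scaling, for calycosin plus LPS, LPS and vehicle cells, with 1 point per replicate and a line at the mean of 3 libraries. Tiparp is near 130 CPM in both LPS-exposed groups and near 31 CPM in vehicle cells, while Cyp1a1 and Cyp1b1 lie at 0 throughout and the 1 point of Ahr above 0 is LPS replicate 1.

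The receptor itself was at the limit of detection. Ahr (ENSMUSG00000019256, GRCm38 chr12:35497974-35535038, minus strand) had 2 counts in LPS replicate 1 and 0 counts in the other 8 libraries. Those 2 counts are 0.0910 CPM, with an exact 95% Poisson interval of 0.0110 to 0.329 CPM that covers counting error only. No group therefore differed detectably in Ahr at this depth, and no fold change is given.

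Cyp1a1 and Cyp1b1, the cytochrome P450 monooxygenases by which AHR activity is usually read, had 0 counts in all 9 libraries. Cyp1a1 (ENSMUSG00000032315) lies at chr9:57687928-57703824 on the plus strand and Cyp1b1 (ENSMUSG00000024087) at chr17:79701537-79715061 on the minus strand. A count of 0 allows a level of up to 0.0602 to 0.137 CPM, depending on the library. Cyp1a2, their relative at the Cyp1a1 locus, also had 0 counts in every library. Calycosin plus LPS, LPS and vehicle cells thus could not be told apart by these enzymes.

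Arnt, the partner that AHR shares with the hypoxia factor HIF1A, was well expressed in every library. Its gene (ENSMUSG00000015522) lies at chr3:95434388-95497240 on the plus strand. It had 2708, 3502 and 2910 counts in calycosin plus LPS cells, 1962, 2113 and 1715 in LPS cells, and 2198, 2222 and 2090 in vehicle cells. On the CPM scale these were 84.8, 82.1 and 94.2 in calycosin plus LPS cells, 89.3, 86.6 and 71.2 in LPS cells, and 44.1, 45.6 and 63.5 in vehicle cells. Both LPS-exposed groups lay above all vehicle libraries and overlapped each other. Groups without overlap were common: LPS and vehicle libraries did not overlap in 60.8% of all genes tested. The share was 49.7% for calycosin plus LPS against LPS and 56.2% for calycosin plus LPS against vehicle. These shares apply to every statement of overlap below. Arnt averaged 82.4 ± 9.75 CPM in LPS cells and 51.1 ± 10.8 CPM in vehicle cells (SD, n = 3 each), which is 1.61-fold higher with LPS (log2 fold change 0.69, SE 0.16, edgeR quasi-likelihood test, adjusted p = 0.00462). With calycosin before LPS it averaged 87.0 ± 6.34 CPM, a log2 difference from LPS of 0.08 with a 95% interval of -0.28 to 0.43 (adjusted p = 0.738). Against vehicle, calycosin plus LPS cells were 1.70-fold higher (log2 fold change 0.77, SE 0.16, adjusted p = 0.00322). In bulk RNA, more cells expressing a gene and more of its RNA per cell cannot be told apart, here and below.

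The direction of Arnt with LPS depended on the scaling. On the authors' TPM, an abundance per transcript length, it averaged 43.3 ± 6.15 in calycosin plus LPS cells, 34.3 ± 4.21 in LPS cells and 35.9 ± 2.65 in vehicle cells (SD, n = 3 each). The limma test on log2(TPM + 1) gave -0.07 for LPS against vehicle (adjusted p = 0.727) and 0.26 for calycosin plus LPS against vehicle (adjusted p = 0.259). The median of all genes for LPS against vehicle was -0.61 on that scale and -0.07 on the TMM scale, so that Arnt lay 0.53 above the median gene in TPM and 0.76 above it in CPM.

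Ahrr, which encodes the AHR repressor, was rare in all groups and had no counts after LPS without calycosin. Its gene (ENSMUSG00000021575) lies at chr13:74211118-74292331 on the minus strand. It had 6, 6 and 6 counts in calycosin plus LPS cells, 0, 0 and 0 in LPS cells, and 16, 30 and 36 in vehicle cells. The levels were 0.188, 0.141 and 0.194 CPM in calycosin plus LPS cells, 0 in LPS cells, and 0.321, 0.616 and 1.09 CPM in vehicle cells. The 3 groups did not overlap, with calycosin plus LPS cells between the others, but 49.7% to 60.8% of all genes tested did not overlap in these comparisons. All values of Ahrr rest on 36 counts or fewer, and the gene passed the filter on low counts through the vehicle libraries. With LPS cells set at the limit of 3 counts per library, the vehicle mean was 5.29-fold above them (LPS against vehicle, adjusted p = 9.88e-04, edgeR). The calycosin plus LPS mean was 1.36-fold above the same limit. Both folds leave out the counting error of the group that had counts. Most low counts were even, so the limit may be too low and neither fold is a firm lower bound. Calycosin plus LPS cells were called higher than LPS cells (edgeR, adjusted p = 0.0220). This call was lost without LPS replicate 2 (adjusted p = 0.0518), without calycosin plus LPS replicate 1 (0.0527) or 3 (0.0508), and on log2(TPM + 1) (0.771). Against vehicle, calycosin plus LPS cells averaged 0.174 ± 0.0292 CPM and vehicle cells 0.677 ± 0.390 CPM (SD, n = 3 each), a 3.80-fold lower level (log2 fold change -1.93, SE 0.57, adjusted p = 0.0252). Leaving out vehicle replicate 2 or 3, or any calycosin plus LPS library, ended that call (adjusted p = 0.0567 to 0.0827).

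Among the 3 tested genes with counts in every library, Tiparp had the largest LPS difference. Its product, also called PARP7, is a mono-ADP-ribosyltransferase that acts on AHR and dampens its signal. The gene (ENSMUSG00000034640) lies at chr3:65528410-65555518 on the plus strand. It had 4413, 5057 and 4045 counts in calycosin plus LPS cells, 2929, 3297 and 3036 in LPS cells, and 1404, 1289 and 1267 in vehicle cells. On the CPM scale these were 138, 119 and 131 in calycosin plus LPS cells, 133, 135 and 126 in LPS cells, and 28.2, 26.5 and 38.5 in vehicle cells. Every LPS-exposed library lay far above every vehicle library, and the LPS-exposed groups overlapped.

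Tiparp averaged 132 ± 4.79 CPM in LPS cells and 31.1 ± 6.52 CPM in vehicle cells (SD, n = 3 each), 4.24-fold higher with LPS (log2 fold change 2.08, SE 0.15, edgeR, adjusted p = 2.46e-06). Calycosin plus LPS cells averaged 129 ± 9.88 CPM, and their log2 difference from LPS cells was -0.03, with a 95% interval of -0.35 to 0.30 (adjusted p = 0.914). The sign of this small difference turned on TPM (0.31, adjusted p = 0.263) and without calycosin plus LPS replicate 2 (0.04, adjusted p = 0.897). Calycosin plus LPS cells were 4.16-fold above vehicle cells (log2 fold change 2.06, SE 0.15, adjusted p = 4.03e-06). Both differences from vehicle kept their direction and passed the threshold in all 18 other settings tried. An antisense gene, 4931440P22Rik, shares 5.12% of the exonic bases of Tiparp, and its counts were 28, 44 and 31 in calycosin plus LPS cells, 61, 42 and 49 in LPS cells, and 205, 276 and 149 in vehicle cells, where Tiparp was lowest.

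**Figure D2:**
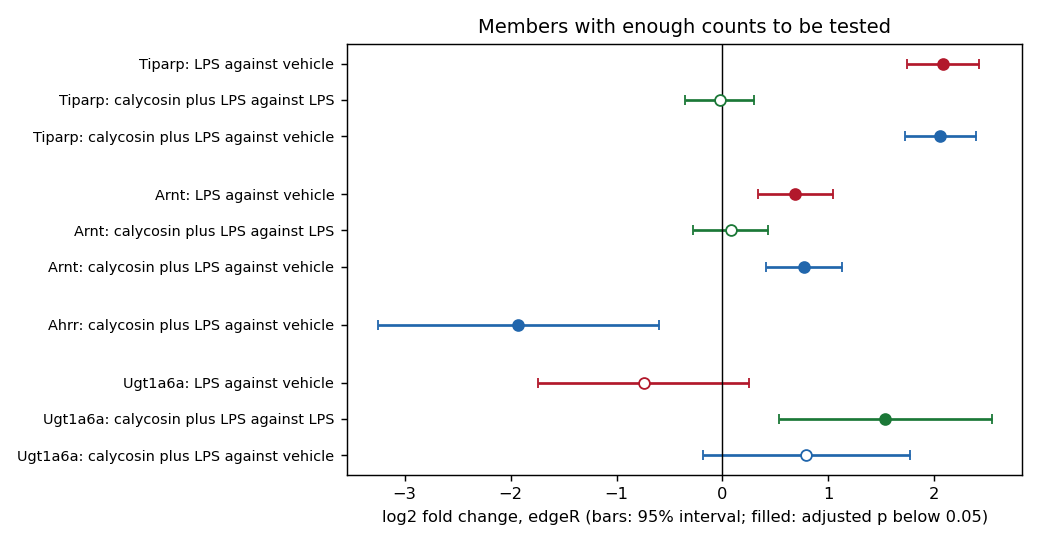
Log2 fold changes of the 4 tested genes with 95% intervals from edgeR, filled where the adjusted p was below 0.05, and without the 2 comparisons of Ahrr in which 1 group had no counts. Tiparp is near 2 against vehicle in both LPS-exposed groups (2.08 and 2.06) and near 0 between them (-0.03), and the intervals of Ugt1a6a and Ahrr are the widest.

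Ugt1a6a encodes a UDP-glucuronosyltransferase that conjugates phenols, and it is a drug-metabolism target of AHR. The gene (ENSMUSG00000054545) lies at chr1:88134809-88218997 on the plus strand. It had 678, 2425 and 581 counts in calycosin plus LPS cells, 265, 262 and 257 in LPS cells, and 1449, 607 and 474 in vehicle cells. The levels were 21.2, 56.9 and 18.8 CPM in calycosin plus LPS cells, 12.1, 10.7 and 10.7 CPM in LPS cells, and 29.1, 12.5 and 14.4 CPM in vehicle cells. LPS libraries were lowest, with the highest of them just under the lowest vehicle library, and calycosin plus LPS replicate 2 and vehicle replicate 1 stood above the rest of their groups.

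Ugt1a6a averaged 32.3 ± 21.3 CPM in calycosin plus LPS cells and 11.2 ± 0.782 CPM in LPS cells (SD, n = 3 each), 2.90-fold higher with calycosin (log2 fold change 1.54, SE 0.45, edgeR, adjusted p = 0.0292). The call rested on single libraries: without calycosin plus LPS replicate 2 the log2 fold change was 0.85 (adjusted p = 0.0963), and without LPS replicate 1, 2 or 3 the adjusted p was 0.0753, 0.0875 or 0.0882. LPS cells differed from vehicle cells, which averaged 18.7 ± 9.08 CPM, by -0.74 on the log2 scale with a 95% interval of -1.74 to 0.25 (adjusted p = 0.179). Without vehicle replicate 3 and calycosin plus LPS replicate 2 together, that difference was -0.95 and passed (adjusted p = 0.0248). Calycosin plus LPS cells differed from vehicle cells by 0.79, with an interval of -0.18 to 1.77 (adjusted p = 0.158), by 1.24 without vehicle replicate 1 (adjusted p = 0.0485) and by 0.96 with the mitochondrial share as a covariate (adjusted p = 0.0420). Without vehicle replicate 3 and calycosin plus LPS replicate 2 together it turned to -0.09 (adjusted p = 0.836).

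The counts of Ugt1a6a are uncertain as a measure of that gene alone. The mouse UGT1A locus joins alternative first exons to common last exons, and 2170 of the 4312 exonic bases of Ugt1a6a (50.3%) are also exonic in other UGT1A genes, 1311 of them in all 9. Ugt1a7c took 66.8% to 86.7% of the counts of the locus in a library. Ugt1a6a took 12.4%, 25.8% and 11.5% of them in calycosin plus LPS cells, 8.90%, 9.19% and 8.30% in LPS cells, and 17.3%, 7.48% and 10.4% in vehicle cells. The 9 genes were therefore also summed, although reads on shared bases may have been dropped or counted for several genes, which was not tested. The sum was 171, 221 and 163 CPM in calycosin plus LPS cells, 135, 117 and 129 CPM in LPS cells, and 168, 167 and 139 CPM in vehicle cells, so that LPS libraries lay below all others. Calycosin plus LPS cells averaged 185 ± 31.4 CPM and LPS cells 127 ± 9.41 CPM (SD, n = 3 each), 1.46-fold higher with calycosin (log2 fold change 0.54, edgeR, adjusted p = 0.0188). This was lost without LPS replicate 2 (adjusted p = 0.0749) and without calycosin plus LPS replicate 2 (log2 fold change 0.40, adjusted p = 0.0597). LPS cells differed from vehicle cells, which averaged 158 ± 16.6 CPM, by -0.32 (adjusted p = 0.0841), and by -0.46 without vehicle replicate 3 (adjusted p = 0.0138).

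**Figure D3:**
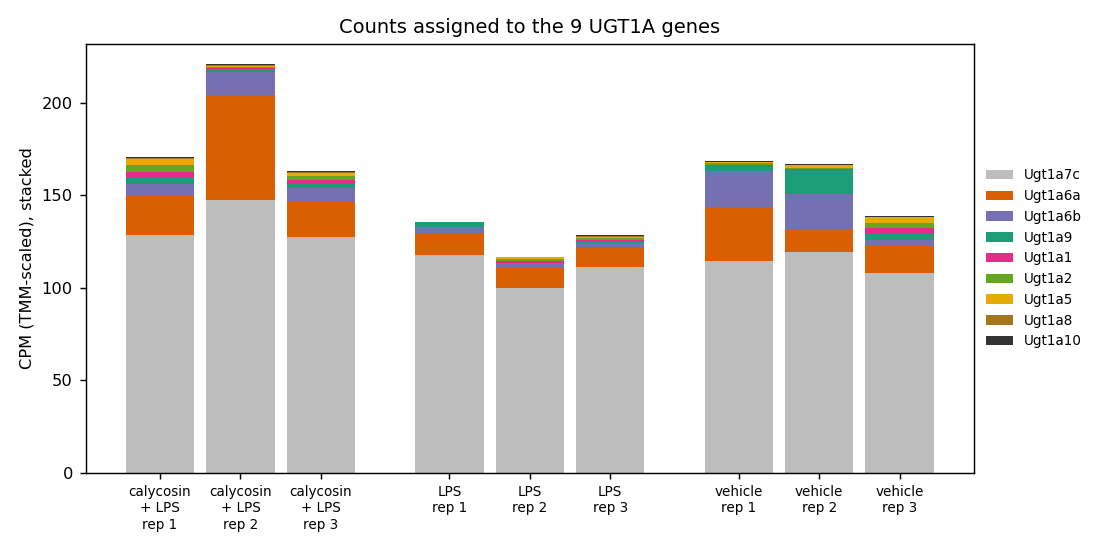
CPM after TMM scaling assigned to the 9 UGT1A genes in each library, stacked, with calycosin plus LPS, LPS and vehicle libraries from left to right. Ugt1a7c is the largest block in every library, the total is lowest in the 3 LPS libraries (117 to 135 CPM), and the Ugt1a6a block is largest in calycosin plus LPS replicate 2 (56.9 CPM).

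Against vehicle, LPS thus gave higher levels of 2 of the 4 tested genes (Arnt and Tiparp, where 27.3% of all genes tested were higher) and a lower level of 1 (Ahrr, where 28.9% were lower), that is, 3 of 4 in either direction beside 56.3% of all genes. Calycosin plus LPS against LPS gave higher levels of 2 (Ahrr and Ugt1a6a, where 16.1% of all genes were higher) and a lower level of none (12.9% of all genes were lower), 2 of 4 in either direction beside 29.1%. Calycosin plus LPS against vehicle gave 2 higher (Arnt and Tiparp, 25.4% of all genes) and 1 lower (Ahrr, 23.6%), 3 of 4 in either direction beside 49%. These are tallies that support nothing further, since they take in Ahrr, which passed the filter on low counts only through the vehicle libraries where it was high. The comparisons share libraries and are not independent of each other. Over all genes LPS against vehicle gave 3954 higher and 4180 lower on the TMM scale but 1458 and 6775 on log2(TPM + 1), and calycosin plus LPS against LPS gave 2333 and 1871 but 1505 and 340 on log2(TPM + 1). Calycosin plus LPS against vehicle gave 3672 higher and 3413 lower on the TMM scale and 1469 and 3535 on log2(TPM + 1).

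Per transcript length, on the TPM scale, Tiparp was the highest of the 7 genes in LPS-exposed cells but not in vehicle cells. Its level was 52.6 ± 7.67 TPM in calycosin plus LPS cells, 42.0 ± 0.433 TPM in LPS cells and 17.0 ± 2.29 TPM in vehicle cells (SD, n = 3 each). Arnt, at 43.3, 34.3 and 35.9 TPM in the same groups, came next in LPS-exposed cells and first in vehicle cells. Ugt1a6a was at 23.9 ± 22.6 TPM in calycosin plus LPS cells, 5.36 ± 0.165 TPM in LPS cells and 18.6 ± 12.2 TPM in vehicle cells. Its vehicle level and that of Tiparp did not differ beyond their spread. Ahrr was at 0.0573 ± 0.00713 TPM in calycosin plus LPS cells, was listed at 0 in LPS cells, and was at 0.390 ± 0.186 TPM in vehicle cells.

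Other genes whose levels ran most like those of the members were found by the root mean square difference of centred log2 CPM over the 9 libraries. A prior count of 2 was added before the log. Symbols that start with Gm and a digit, end in Rik or contain the letters ps were left out. The ranking therefore holds only among the remaining tested genes. Rab8b (0.110), Coq10b (0.113) and Slc4a7 (0.129) came closest to Tiparp. Cnot7 (0.0726), Zcchc10 (0.0786) and Zmym4 (0.0852) came closest to Arnt. The nearest genes were farther off for Ahrr, with Wee1 at 0.313, Nfic at 0.334 and Esco2 at 0.339. For Ugt1a6a they were Slc45a3 at 0.343, Slc22a18 at 0.362 and Alkbh4 at 0.390. Ahrr had 0 counts in LPS cells, so its distances depend on the prior count. It also passed the filter only through the vehicle libraries.

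Of 6 genes of the complexes that AHR forms in the cytosol and with ARNT in the nucleus, the receptor was at the limit of detection and the other 5 were tested. With LPS 4 of these, Arnt among them, were higher than with vehicle (27.3% of all genes) and none was lower (28.9%). The median log2 fold change was 0.69, which is the value of Arnt, beside -0.07 over all genes. On log2(TPM + 1) 1 was higher, Src. Src, the tyrosine kinase, had 126, 135 and 77.8 CPM in LPS cells and 34.7, 33.1 and 18.8 CPM in vehicle cells (3.90-fold higher, edgeR, adjusted p = 2.84e-04). These groups did not overlap, as in 60.8% of all genes tested. The chaperone Hsp90aa1 was 2.08-fold higher (adjusted p = 2.17e-04) and Hsp90ab1 1.47-fold higher (adjusted p = 0.0135). The call of Hsp90ab1 was lost without vehicle replicate 1 (adjusted p = 0.0601), and its sign turned on log2(TPM + 1) (-0.20, adjusted p = 0.405). With calycosin before LPS only Ptges3, which encodes p23, passed among the 5, beside 29.1% of all genes in either direction. Ptges3 had 101, 89.8 and 85.1 CPM in calycosin plus LPS cells and 113, 133 and 140 CPM in LPS cells (1.40-fold lower, adjusted p = 0.0138, and 0.0544 without LPS replicate 2). On TPM it averaged 78.1 ± 17.4 in calycosin plus LPS cells and 85.6 ± 10.9 in LPS cells (SD, n = 3 each). None of the 5 passed in this comparison on log2(TPM + 1) or without the filter on low counts.

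Among 11 bHLH-PAS relatives, 6 were tested. With LPS 3 were higher and 1 (Ahrr) lower than with vehicle, with a median log2 fold change of 0.65, beside 27.3% higher and 28.9% lower over all genes. Ahrr, which passed the filter only through the vehicle libraries, is part of that count and median, so they support nothing further. On log2(TPM + 1) 1 was higher and 1 lower. Arnt2, a close relative of Arnt that is best known in neurons, had 0.282, 0.586 and 0.194 CPM in calycosin plus LPS cells, 2.23, 1.39 and 1.54 CPM in LPS cells, and 0.401, 0.185 and 0.486 CPM in vehicle cells. Only its LPS libraries were above 1 CPM. LPS cells were 4.84-fold above vehicle cells (adjusted p = 0.00306), and calycosin plus LPS cells were 4.70-fold below LPS cells (adjusted p = 0.00843), although neither passed on log2(TPM + 1) (0.0988 and 0.162). Hif1a, the hypoxia-inducible factor subunit that also pairs with ARNT, was 2.37-fold higher with LPS than with vehicle (adjusted p = 0.00317). Arntl, the clock factor BMAL1, had 30.3, 30.0 and 30.8 CPM in calycosin plus LPS cells, 42.2, 45.7 and 47.7 CPM in LPS cells, and 23.0, 22.4 and 24.5 CPM in vehicle cells. The 3 groups did not overlap, with LPS 1.94-fold above vehicle (adjusted p = 3.61e-05) and calycosin plus LPS 1.49-fold below LPS (adjusted p = 0.00303). Neither passed on log2(TPM + 1) (0.469 and 0.555).

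All 8 coregulators that AHR is known to use were tested, of which 4 were higher and 1 lower with LPS than with vehicle, beside 27.3% and 28.9% of all genes. On log2(TPM + 1) none was higher and 4 were lower. The acetyltransferases Ep300 and Crebbp were 2.05-fold and 2.04-fold higher (adjusted p = 0.0287 and 0.0227), and both calls were lost without LPS replicate 1 (adjusted p = 0.0894 and 0.0756) or vehicle replicate 1 (0.102 and 0.0913). The Mediator subunit Med1 was 1.74-fold higher (adjusted p = 0.0111, but 0.609 on log2(TPM + 1)). Ncoa2, a p160 coactivator, had 43.0, 29.0 and 19.6 CPM in LPS cells and 61.7, 63.2 and 86.1 CPM in vehicle cells (2.31-fold lower, adjusted p = 0.00268). The groups did not overlap, as in 60.8% of all genes tested. With calycosin before LPS only Nrip1, the receptor-interacting protein RIP140, passed among the 8, beside 29.1% of all genes in either direction. It had 37.1, 31.9 and 34.3 CPM in calycosin plus LPS cells and 17.8, 17.8 and 16.6 CPM in LPS cells (1.98-fold higher, adjusted p = 0.00858). The number that passed in this comparison depended on the setting. Of the 8, 2 were higher and 2 lower with the mitochondrial covariate. Without both libraries that stand apart, 1 was higher and 2 were lower, and on log2(TPM + 1) 1 was higher and 0 lower.

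Of 14 genes usually counted in the AHR gene battery, 8 were tested. Besides Tiparp and Ahrr, LPS cells differed from vehicle cells in Xdh, xanthine dehydrogenase, which had 160, 169 and 161 CPM in LPS cells and 93.7, 99.5 and 78.1 CPM in vehicle cells (1.81-fold higher, adjusted p = 3.26e-04, but 0.836 on log2(TPM + 1)). Ugt1a6b was 4.79-fold lower with LPS (adjusted p = 0.00698), with 3.14, 3.07 and 2.57 CPM in LPS cells and 19.6, 18.9 and 3.47 CPM in vehicle cells. Vehicle replicate 3 thus lay near the LPS libraries, and the shared exons of the locus apply to this gene as well. Nqo1, the quinone reductase, had 0.814, 1.03 and 0.906 CPM in calycosin plus LPS cells, 0.683, 0.246 and 0.748 CPM in LPS cells, and 1.22, 0.965 and 0.942 CPM in vehicle cells, and passed in none of the comparisons. Its adjusted p was 0.209 for calycosin plus LPS against LPS and 0.0765 for LPS against vehicle. The median log2 fold change of the 8 genes was 0.51 for calycosin plus LPS against LPS, beside 0.02 over all genes. Of the 8, 2 were higher (16.1% of all genes) and none lower (12.9%), both of them described above. Ahrr, at 0 counts in LPS cells, is 1 of the 2 and enters this median. It passed the filter only through the vehicle libraries, so the count and the median support nothing further. On log2(TPM + 1) none of the 8 passed, and with a mitochondrial covariate 4 were higher and 1 lower.

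Tryptophan is the source of many natural AHR ligands, and 5 of 12 genes of its uptake and breakdown were tested. Ido1 and Kynu, 2 enzymes of the kynurenine route, had 0 counts in all libraries. Il4i1, a secreted amino acid oxidase whose tryptophan products are AHR ligands in human cells, had 5.32, 6.92 and 6.70 CPM in calycosin plus LPS cells, 0.865, 0.656 and 1.41 CPM in LPS cells, and 0.0602, 0.205 and 0.578 CPM in vehicle cells. All 3 groups were apart, and calycosin plus LPS cells were 6.44-fold above LPS cells (log2 fold change 2.69, SE 0.52, edgeR, adjusted p = 0.00452; 2.04 and 0.00249 on log2(TPM + 1)). LPS cells were 3.72-fold above vehicle cells (adjusted p = 0.0219), a call lost without LPS replicate 3 (0.0905) or vehicle replicate 2 (0.0706). Afmid, kynurenine formamidase, had 18.8, 15.6 and 4.34 CPM in calycosin plus LPS cells and 1.55, 5.17 and 1.495 CPM in LPS cells. These groups overlapped, and the 4.71-fold higher level (adjusted p = 0.0315) was lost when LPS replicate 1 or 3 or calycosin plus LPS replicate 1 or 2 was left out (adjusted p = 0.0787 to 0.108). Slc7a5, the LAT1 transporter that carries tryptophan into cells, had 275, 274 and 281 CPM in calycosin plus LPS cells, 444, 411 and 404 CPM in LPS cells, and 287, 283 and 289 CPM in vehicle cells. LPS cells were 1.47-fold above vehicle cells (adjusted p = 8.08e-04) and calycosin plus LPS cells 1.52-fold below LPS cells (adjusted p = 0.00171). Its partner chain Slc3a2 was 1.56-fold higher with LPS than with vehicle (adjusted p = 0.00519), a sign that turned on log2(TPM + 1) (-0.11, adjusted p = 0.791). For Slc7a5 on log2(TPM + 1) the LPS difference turned to -0.22 (adjusted p = 0.436) and the calycosin difference was -0.27 (adjusted p = 0.506).

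Tiparp belongs to the mono-ADP-ribosyltransferase PARPs, of which 11 of 12 genes were tested and Parp8 had 0 counts in all libraries. With LPS 9 of the 11 were higher than with vehicle and none was lower, beside 27.3% and 28.9% of all genes. The median log2 fold change of the 11 was 2.30, beside -0.07 over all genes. On log2(TPM + 1) 9 were higher and 2 lower. Tiparp was not the most raised: Parp14, a macrodomain PARP, had 1850, 1920 and 1779 CPM in LPS cells and 26.6, 25.7 and 33.3 CPM in vehicle cells, 64.9-fold higher (adjusted p = 6.41e-09, edgeR). Parp12 was 15.6-fold higher (adjusted p = 6.75e-09), Parp9 8.51-fold (adjusted p = 2.51e-08) and Parp11 8.19-fold (adjusted p = 2.04e-08). With calycosin before LPS, none of the 11 was higher than with LPS and 2 were lower, beside 16.1% and 12.9% of all genes. The median of the 11 was -0.29. The number lower was 4 with RLE scaling, 6 with the mitochondrial covariate and 0 on log2(TPM + 1), and without both libraries that stand apart 5 were lower and 1 higher. Parp12 had 450, 457 and 463 CPM in calycosin plus LPS cells and 761, 707 and 659 CPM in LPS cells (1.55-fold lower, adjusted p = 0.00185, but 0.471 on log2(TPM + 1)). Zc3hav1, the catalytically inactive antiviral member, was 1.37-fold lower (adjusted p = 0.0161), a call lost without LPS replicate 1 (0.0560) or 2 (0.0641) or calycosin plus LPS replicate 1 (0.0504) or 2 (0.0635). In calycosin plus LPS cells against vehicle cells 9 of the 11 were higher and none was lower, beside 25.4% and 23.6% of all genes.

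**Figure D4:**
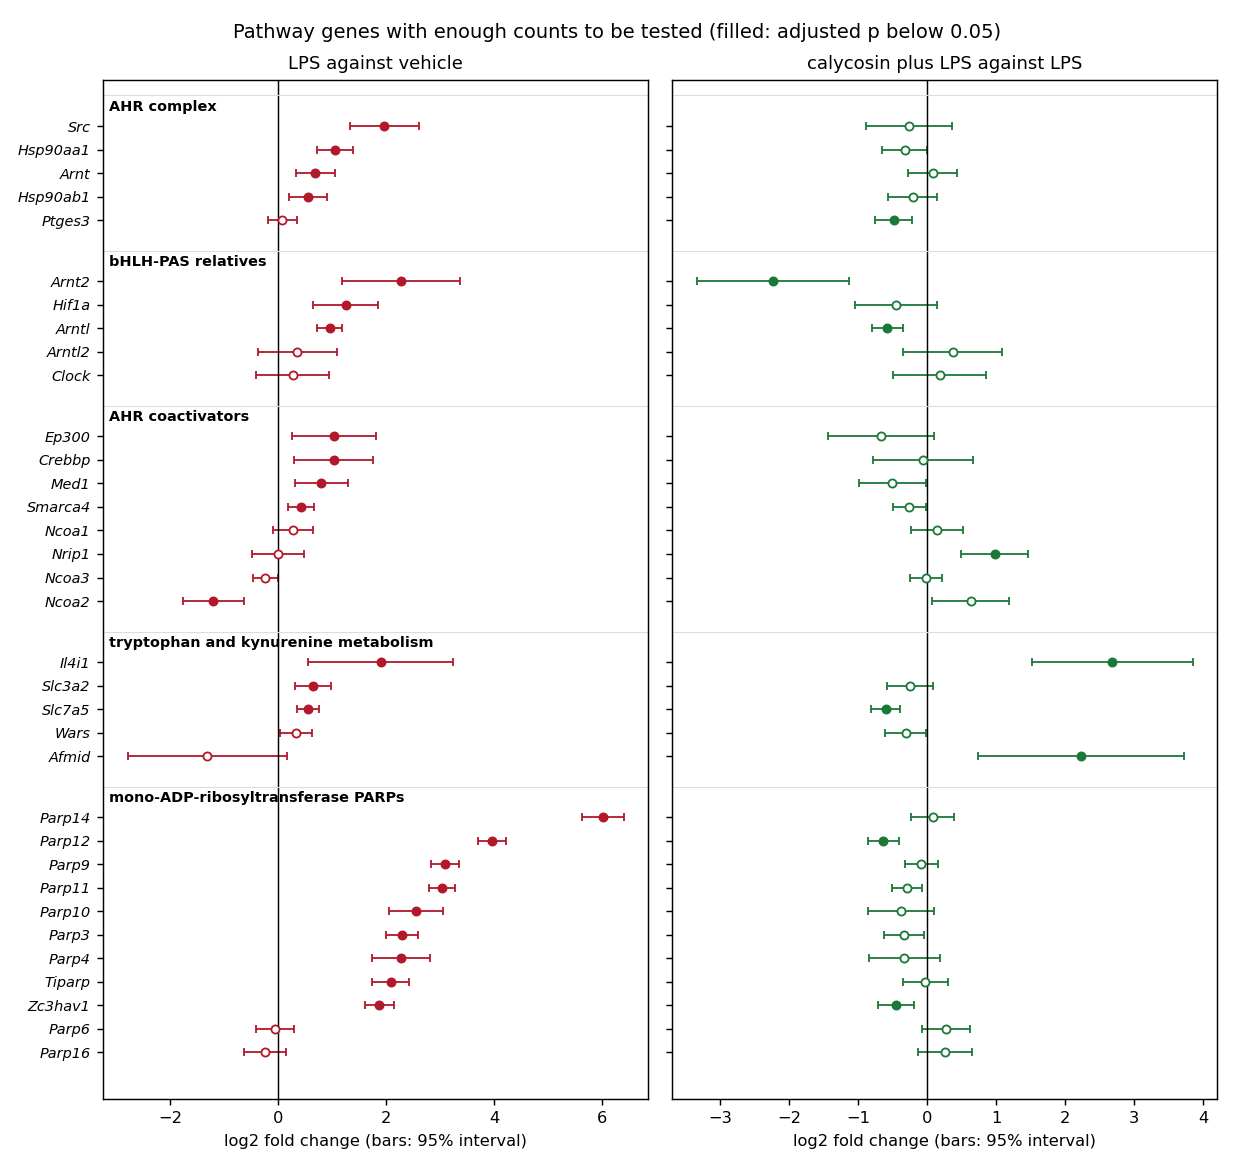
Log2 fold changes with 95% intervals from edgeR for tested genes of 5 groups around AHR, for LPS against vehicle (left) and calycosin plus LPS against LPS (right), filled where the adjusted p was below 0.05. Ahrr, which has no counts in LPS cells, is left out, 9 of 11 PARPs lie to the right with LPS, and Il4i1 (2.69) and Afmid (2.24) are the highest and Arnt2 (-2.23) the lowest on the right panel.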

How the data were processed

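Polyadenylated RNA from 9 libraries was sequenced. Trimmomatic 0.36, HISAT2 2.0, StringTie 1.3.3b and build mm10 are named, without an order, per the submitters' processing notes. The authors deposited raw counts for 51826 genes and TPM, scaled for length and depth, for all but 27 of them. The sources used here do not name the read counter, its use of strand or its handling of shared reads. Among counts from 2 to 21, 64.0% to 69.3% were even, so counting intervals may be too narrow.

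Counts were fitted with edgeR 4.0.16 (R 4.3.3) after filterByExpr at its defaults (minimum count 10) and TMM scaling, in 1 model of the 9 libraries and their 3 groups, with two-sided quasi-likelihood F tests. Benjamini-Hochberg adjustment covered all genes tested (threshold 0.05). SE came from the test statistic. An exact permutation of 3 against 3 cannot go below 0.1. No libraries were duplicates. The scripts were tested on simulated counts. Alternatives used RLE scaling, DESeq2 1.42.0, limma 3.58.1 on log2(TPM + 1) or log2(TPM + 0.1), no filter, a mitochondrial covariate, 2 groups only, a replicate block, and fewer libraries. The UGT1A sum was added after seeing the data.

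The 7 genes and the lists were chosen with earlier results of these data known. Up to 4 called genes per list with the largest change, from 1 CPM in the higher group, were named. Nqo1, Ido1, Kynu, Cyp1a2, Parp8 and Cdh5 were named outside this rule after their values were seen. Some list genes are not reported here. Positions are from GENCODE M21 (GRCm38).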

Additional observations from a re-analysis of the deposited data

How the results depend on the processing

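Of 218 values of single genes under other settings, 183 kept their direction and side of the threshold, 22 lost the call, 4 gained it and 9 turned. On TPM, LPS against vehicle called 1458 genes higher with a pseudocount of 1 and 1470 with 0.1 (3954 in counts) and 6775 and 6838 lower (4180). Calycosin plus LPS against LPS called 1505 higher with 1 (2333) and 340 and 347 lower (1871), and calycosin plus LPS against vehicle 1469 and 1502 higher (3672). With the mitochondrial covariate, 3307 genes were lower for calycosin plus LPS against LPS, and single libraries left out gave 1224 to 2576.

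Of the 7 genes, TPM called 1 higher with either pseudocount for LPS and for calycosin plus LPS against vehicle, and 0 higher for calycosin plus LPS against LPS. It called 2 lower for LPS against vehicle (0.1), and 0 lower for calycosin plus LPS against vehicle (1). Without both libraries that stand apart, these counts were 2 lower for LPS against vehicle, 1 higher for calycosin plus LPS against LPS and 0 lower for calycosin plus LPS against vehicle. Leaving out single libraries gave 0 to 2 higher for calycosin plus LPS against LPS and 0 to 1 lower for calycosin plus LPS against vehicle. Fitting only the 2 groups compared gave 1 higher for calycosin plus LPS against LPS.

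Arnt turned to -0.072 and -0.074 with pseudocounts of 1 and 0.1 for LPS against vehicle, and ran from -0.012 (without LPS replicate 3) to 0.14 with single libraries left out for calycosin plus LPS against LPS. Tiparp in that comparison turned to 0.021 without a filter, 0.31 with either pseudocount and 0.056 without both libraries, and ran from -0.072 to 0.038 (without calycosin plus LPS replicate 2) with single libraries left out. Ugt1a6a for calycosin plus LPS against vehicle turned to -0.086 without both libraries. The cause was not tested.

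Deviations of same-numbered libraries from their group means had correlations from -0.17 to 0.36, and those of other pairs from -0.47 to 0.36. The strongest of these involve calycosin plus LPS replicate 2, which stands apart, so they cannot show whether same-numbered libraries were paired. The replicate block left 1 gene higher for calycosin plus LPS against LPS, Ahrr, with Ugt1a6a at 1.45 (adjusted p = 0.0509), and changed no other call of the 7 genes. Among the other genes named, it ended those of Crebbp with LPS (0.0505) and Afmid with calycosin (0.0536). With only calycosin plus LPS and LPS libraries fitted, Ahrr did not pass the filter. Depth limits Ahr, Cyp1a1, Cyp1b1 and Ahrr.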
